A study of Mus musculus with 12 samples.

Results

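The 10 genes described here belong to transforming growth factor beta (TGF-beta) signalling and were measured in mouse hearts expressing NOTCH2NLC-(GGC)98, a human NOTCH2NLC sequence with an expanded run of 98 GGC repeats. They are the ligand genes Tgfb1, Tgfb2 and Tgfb3, the latent binding protein genes Ltbp1, Ltbp2, Ltbp3 and Ltbp4, the receptor genes Tgfbr1 and Tgfbr2, and Inhba. They were taken by symbol from a table of 25171 loci, and all 10 were found and passed the filter on low counts in every comparison. Each of the 4 groups held 3 hearts. All animals carried the NOTCH2NLC-(GGC)98 sequence at Rosa26 behind a loxP-stop-loxP cassette, so the controls have the silent allele too. In EIIa-tg mice (E2a in the labels), a Cre driven by EIIa removed the stop across tissues, and their controls (EIIa-ctl) were littermates without that Cre, both taken at postnatal day 30 (P30). In Myh6-tg mice, Myh6-creERT2, a Cre of cardiomyocytes that acts after tamoxifen, was switched on by 3 injections of 75 mg/kg tamoxifen in corn oil from P60, and the controls (Myh6-ctl) carry the same genotype label but received corn oil alone, both taken at P90. In the Myh6 model, tamoxifen, expression of the repeat and the difference in Esr1 mRNA described below therefore cannot be told apart. Between models, age, Cre line and injection cannot be told apart. The genotype labels of EIIa-tg replicates 2 and 3 (e3a_transgenic and e4a_transgenic) differ from that of replicate 1 (e2a_transgenic), and these hearts were grouped by title.

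TGF-beta is made as a precursor whose cut propeptide stays wrapped around the growth factor and keeps it latent. Latent TGF-beta binding proteins tie this small complex to fibrillin and fibronectin in the matrix, and integrins, thrombospondin or proteases then release it. Free ligand brings together the type II receptor (Tgfbr2) and the type I receptor (Tgfbr1), which phosphorylates Smad2 and Smad3. In the heart the pathway is best known for driving fibroblasts to lay down matrix after injury. Inhba encodes the subunit of activin A, a relative that signals through other receptors to the same Smads. Ltbp2 is the exception among the binding proteins, since it does not bind latent TGF-beta and is mainly a protein of elastic fibres and microfibrils.

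Depth ran from 38343106 to 50969834 counts per heart, so that 3 counts corresponded to 0.0568 to 0.0815 normalized CPM (CPM, read counts scaled to a common library size, here after TMM scaling over the 12 hearts). Mitochondrially encoded mRNA took 28.5% to 38.3% of the counts in 9 hearts and 15.5% to 18.6% in the 3 Myh6-tg hearts. Replicate 1 of each group carried 4224 to 7307 counts of Y-linked genes and the other hearts at most 2, so the hearts numbered 1 differ from the rest in sex. Esr1, the estrogen receptor gene of which a part is fused to Cre in tamoxifen-inducible lines, goes against the shared genotype label of the Myh6 groups. It stood at 2330, 1383 and 1030 normalized CPM in Myh6-ctl and at 1.30, 2.52 and 1.00 in Myh6-tg, close to the 0.408 to 1.23 of the EIIa hearts. The group names below are those of the labels, and the part of this mismatch in the results was not tested. The labels' extraction text names brain, but the neuronal genes Snap25 and Syt1 had at most 5 and 6 counts, and the cardiomyocyte gene Actc1 had at least 159282. The atrial genes Myl7, Sln and Bmp10 reached at most 225, 70 and 4 counts. Of the other atrial genes listed, Myl4 ran from 49 to 1550 counts and Nppa from 5058 to 305277. Nppa, at 115 to 6516 normalized CPM, made up nearly all of the summed normalized CPM of the 5 atrial genes, and Myl4 reached at most 29.3. The sum therefore describes Nppa and not the list as a whole. This sum was 116 to 356 in EIIa-ctl and 500.5 to 780.6 in EIIa-tg. It was 153 to 1816 in Myh6-ctl and 4187 to 6522 in Myh6-tg.

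Per length, Ltbp4 was the most abundant of the 10 mRNAs in every group and Inhba the least. In FPKM (fragments scaled for transcript length and for the depth of the heart), Ltbp4 averaged 98.2 ± 8.05 and 89.6 ± 27.7 in the EIIa-ctl and EIIa-tg hearts and 99.1 ± 28.3 and 189 ± 82.7 in the Myh6-ctl and Myh6-tg hearts (SD, n = 3), above every heart of the next gene in each group. Tgfb1 came second in all 4 groups. In EIIa-ctl it averaged 16.7 FPKM, followed by Tgfbr2 at 8.53 and Ltbp1 at 8.13, whose hearts overlapped, then Ltbp3 at 6.62 and Tgfb3 at 6.32, which also overlapped, then Tgfbr1 at 3.29 and Tgfb2 at 2.42, again overlapping. Ltbp2 at 0.434 and Inhba at 0.243 closed this order and overlapped each other. In Myh6-ctl the neighbours from Tgfbr2 (11.2) through Ltbp3 (8.22), Tgfb3 (6.94), Ltbp1 (6.36) and Tgfb2 (5.42) to Tgfbr1 (4.64) each overlapped the next, and Ltbp2 (0.569) and Inhba (0.281) lay apart below. Ltbp2 was the ninth of 10 in EIIa-ctl, EIIa-tg and Myh6-ctl and the fifth in Myh6-tg, where its 31.5 ± 15.8 FPKM overlapped Tgfb2 above it and Tgfbr2 below it. Ltbp1 went the other way in rank, from 4 in EIIa-ctl and 6 in Myh6-ctl to 7 in EIIa-tg and 9 in Myh6-tg. Its mean FPKM was 8.13 in EIIa-ctl and 6.17 in EIIa-tg, but 6.36 in Myh6-ctl and 6.51 in Myh6-tg.

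The 10 genes are spread over 8 chromosomes (GENCODE M21, GRCm38). Tgfb1 (chr7:25687002-25705077, plus strand) and Ltbp4 (chr7:27305136-27337692, minus) lie 1600059 bases apart, and Ltbp2 (chr12:84783212-84876532, minus) and Tgfb3 (chr12:86056745-86079041, minus) lie 1180213 bases apart. Tgfb2 spans chr1:186622792-186705989 (minus), Inhba chr13:16011851-16031621 (plus), Ltbp1 chr17:75005568-75392512 (plus) and Ltbp3 chr19:5740904-5758532 (plus). Tgfbr1 spans chr4:47353222-47414931 (plus) and Tgfbr2 chr9:116084293-116175360 (minus). All are protein-coding. Since the library kit is not stated to keep strand, reads of overlapping antisense transcripts cannot be told from those of the gene. The antisense RNA D030025P21Rik covers 764 exonic bases of Ltbp2, 9.34% of its merged exon length.

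Promoters are shown for the 3 members with the largest log2 fold changes in the Myh6 model and for Ltbp1, the one member that fell in the EIIa model. Each is the 250 bases before the RefSeq transcription start (GRCm38.p6), read 5′ to 3′ on the gene's strand, from chr1:186705990-186706239 (Tgfb2, minus), chr12:84876492-84876741 (Ltbp2, minus), chr13:16011601-16011850 (Inhba, plus) and chr17:75005279-75005528 (Ltbp1, plus, the upstream of its 2 promoters). Capitals mark the letters of any motif searched, on either strand.
Tgfb2: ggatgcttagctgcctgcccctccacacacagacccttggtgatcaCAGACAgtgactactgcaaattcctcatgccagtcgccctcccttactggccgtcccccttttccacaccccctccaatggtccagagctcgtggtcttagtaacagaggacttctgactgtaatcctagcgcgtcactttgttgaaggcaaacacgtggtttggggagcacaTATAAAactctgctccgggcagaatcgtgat
Inhba: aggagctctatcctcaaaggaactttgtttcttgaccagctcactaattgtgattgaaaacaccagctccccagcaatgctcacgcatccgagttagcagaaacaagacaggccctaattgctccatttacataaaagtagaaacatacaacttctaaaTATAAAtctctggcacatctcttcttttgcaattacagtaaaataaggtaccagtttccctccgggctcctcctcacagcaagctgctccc
Ltbp2: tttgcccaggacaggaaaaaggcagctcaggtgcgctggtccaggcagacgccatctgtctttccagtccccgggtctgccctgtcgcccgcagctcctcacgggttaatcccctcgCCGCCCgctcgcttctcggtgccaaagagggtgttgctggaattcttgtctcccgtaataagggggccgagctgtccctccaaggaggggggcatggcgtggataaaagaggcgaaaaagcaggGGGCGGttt
Ltbp1: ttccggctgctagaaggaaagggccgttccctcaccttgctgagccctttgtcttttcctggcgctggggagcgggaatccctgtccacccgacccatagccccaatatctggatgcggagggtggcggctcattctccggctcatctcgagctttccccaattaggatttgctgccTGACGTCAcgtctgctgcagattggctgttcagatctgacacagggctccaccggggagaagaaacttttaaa
The motifs searched were the Smad sequences GTCTAGAC and CAGACA, the AP-1 site TGACTCA, the cyclic AMP response element TGACGTCA, the GC box GGGCGG, the TATA box TATAAA and the TEAD site CATTCC, none of which contains another. Tgfb2 held TATAAA from 31 to 26 bases before the start and CAGACA from 204 to 199 bases before it. Inhba held TATAAA from 91 to 86 bases before the start. Ltbp2 held a pair of GC boxes, from 9 to 4 and from 133 to 128 bases before its start, and Ltbp1 held TGACGTCA from 73 to 66 bases before it. Of 13 promoters found for 9 members (Tgfb3 was not among them), 3 held CAGACA, 2 TATAAA, 6 GGGCGG and 1 TGACGTCA. None of the 13 held GTCTAGAC, TGACTCA or CATTCC. Of all 32851 promoters in the RefSeq table, 17.1% held CAGACA, 12.4% TATAAA, 32.7% GGGCGG, 1.55% TGACGTCA, 0.167% GTCTAGAC, 4.46% TGACTCA and 12.6% CATTCC. These matches are a description of letters, and no binding was measured. GC content separated the 4 shown, at 43.2% in Inhba, 53.6% in Tgfb2, 56.8% in Ltbp1 and 61.6% in Ltbp2, with a median of 52.4% over all promoters.

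Both models were compared with their own controls to see which members moved. In EIIa-tg hearts Tgfb2, Inhba, Ltbp3 and Tgfbr2 rose and Ltbp1 fell (edgeR quasi-likelihood test, adjusted p under 0.05, the threshold for "rose" and "fell" throughout). These 4 members higher compare with 8.65% of the 14908 genes tested that were called higher in this comparison, and the 1 lower with 8.30% called lower. The study called differentially expressed genes (DEGs) by DESeq2 and reported them in both models. Its thresholds were a log2 fold change of 1 or more in either direction and an adjusted p under 0.01. By edgeR no member met these thresholds and 0% of genes did, since the smallest adjusted p over all genes was 0.0135. By DESeq2, run here on the deposited counts, Tgfb2 and Inhba met them, as did 4.97% of the genes that DESeq2 tested. The hearts of 5 members were higher without overlap and those of 1 lower, against 20.3% and 20.8% of all genes. The median log2 fold change of the members was 0.45, and that of all genes 0.02. In Myh6-tg hearts 7 members rose, Ltbp2, Inhba, Tgfb2, Ltbp3, Tgfbr1, Tgfb3 and Tgfb1, and none fell, where 8.96% of 15298 genes were called higher and 9.38% lower. Ltbp2 and Ltbp3 met the DEG thresholds, as did 3.97% of all genes. By DESeq2 6 members met them, and 12.1% of genes. The hearts of 7 members were higher without overlap and those of 1 lower, against 20.6% and 19.6% of all genes. The median log2 fold change was 1.28, and that of all genes 0.03. In heart tissue, a change in the amount of mRNA in each cell and a change in the share of the cells that make it cannot be told apart.

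The number of calls depended on the hearts and the fit, over all genes as for the members. In the EIIa model no member was called without EIIa-ctl replicate 1, without EIIa-tg replicate 1 or with only the hearts numbered 2 and 3, where 0 genes in all were called, nor without EIIa-ctl replicate 3, where 1 gene was. In one fit of all 12 hearts 227 of 15929 genes and no member were called, and without EIIa-tg replicate 3 it was 133 genes, Tgfb2 among them. Where 0 genes or 1 gene in all were called, the counts say little about the members. In all these settings the log2 fold changes of the members kept their direction. Over these settings that of Tgfb2 ranged from 1.92 to 2.36 and that of Tgfbr2 from 0.45 to 0.51. In the Myh6 model 9 members were called without Myh6-tg replicate 1 and 8 with only the hearts numbered 2 and 3, where 4269 and 3320 genes in all were called, against 2805 with all 6 hearts. The count fell to 4 without Myh6-ctl replicate 2 or 3 (1755 and 1637 genes in all) and to 2, Ltbp2 and Ltbp3, without Myh6-ctl replicate 1, Myh6-tg replicate 2 or Myh6-tg replicate 3 (798 to 982 genes in all).

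**Figure D1:**
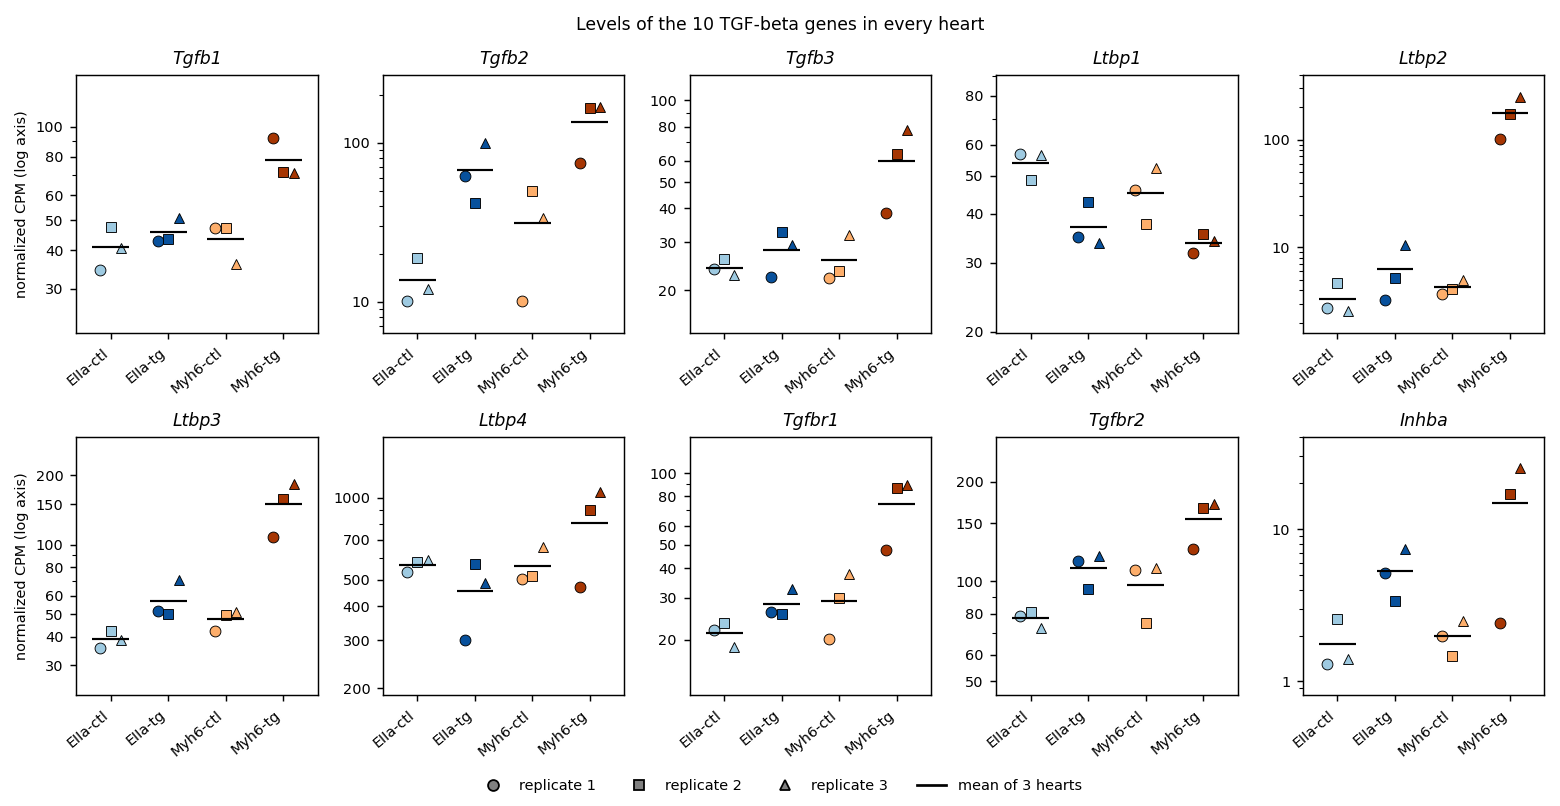
Normalized CPM of each of the 10 genes in every heart (vertical log axis, its range set per gene), by group, with marker shape for the replicate number and a bar for the mean of 3 hearts. Ltbp2 stands between 2.55 and 10.5 in 9 hearts and between 103 and 252 in Myh6-tg, and Myh6-tg replicate 1 is the lowest of its group for 9 genes.

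Tgfb2 was the ligand that changed most in both models. Its normalized CPM was 10.2, 18.8 and 12.1 in EIIa-ctl and 61.7, 42.0 and 98.8 in EIIa-tg, with every transgenic heart above every control. The log2 fold change was 2.29 (SE 0.33, adjusted p 0.0157), a fold of 4.91. In the Myh6 model it was 10.2, 49.9 and 33.6 in controls and 74.8, 165 and 167 in Myh6-tg, again without overlap, for a log2 fold change of 2.12 (SE 0.56, adjusted p 0.0378). The controls differed widely among themselves here. Myh6-ctl replicate 1, which differs in sex from the other Myh6-ctl hearts, lay at the level of the younger EIIa-ctl hearts. Between hearts with the same number the log2 ratio was 2.88, 1.72 and 2.31. In the EIIa model it was 2.60, 1.16 and 3.03.

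Tgfb1, the main circulating and platelet-borne isoform, rose in the Myh6 model. It had 34.6, 47.5 and 40.7 normalized CPM in EIIa-ctl, and 42.6, 43.5 and 50.9 in EIIa-tg, groups that overlapped (log2 fold change 0.16, SE 0.13, adjusted p 0.452). In Myh6-ctl it had 47.1, 47.3 and 36.2, and in Myh6-tg 92.0, 71.6 and 70.7. These groups did not overlap (log2 fold change 0.84, SE 0.19, adjusted p 0.0228). Tgfb1 was the only member highest in Myh6-tg replicate 1. Tgfb3 likewise rose in the Myh6 model, from 22.2, 23.6 and 31.8 normalized CPM to 38.6, 63.3 and 77.8, by 1.21 on the log2 scale (SE 0.28, adjusted p 0.0252). In the EIIa model Tgfb3 ran from 22.7 to 26.0 in controls and from 22.4 to 32.9 in transgenic hearts (log2 fold change 0.22, adjusted p 0.349).

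Inhba was the scarcest member, with 52 to 131 counts in each control heart. It had 1.30, 2.55 and 1.41 normalized CPM in EIIa-ctl and 5.13, 3.40 and 7.37 in EIIa-tg, without overlap (log2 fold change 1.59, SE 0.37, adjusted p 0.0284). In Myh6-ctl it had 1.99, 1.48 and 2.49, and in Myh6-tg 2.41, 17.1 and 25.2. The test called it higher (log2 fold change 2.91, SE 0.74, adjusted p 0.0329), but Myh6-tg replicate 1 lay below the highest control, and the groups overlap. Without that heart the log2 fold change was 3.40 (adjusted p 0.000739), and without each of the other 5 hearts in turn the call was lost (adjusted p 0.0813 to 0.115).

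The make-up of the ligand mRNA was compared per length, as shares of summed FPKM, with no test. Tgfb2 made up 8.11%, 11.1% and 8.81% of the 3 Tgfb mRNAs in EIIa-ctl and 31.5%, 21.6% and 39.7% in EIIa-tg, without overlap. In the Myh6 model its share was 6.57%, 25.3% and 20.1% in controls and 22.0%, 38.6% and 38.4% in transgenic hearts, which overlap. The mean share of Tgfb1 was 65.5% in EIIa-ctl and 49.4% in EIIa-tg, without overlap, and its mean share was 59.8% and 45.6% in the Myh6 groups, which overlap. The summed level was 25.4 ± 4.75 FPKM in EIIa-ctl and 43.9 ± 11.5 in EIIa-tg, and 30.0 ± 3.86 in Myh6-ctl and 96.2 ± 21.1 in Myh6-tg (SD, n = 3). FPKM runs higher in transgenic hearts in general, with a median log2 change over all genes of 0.16 in the EIIa model and 0.34 in the Myh6 model at a pseudocount of 1.

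Ltbp2 gave the largest change of the 10 genes. It had 2.73, 4.66 and 2.55 normalized CPM in EIIa-ctl, 3.25, 5.24 and 10.5 in EIIa-tg, and 3.71, 4.14 and 4.99 in Myh6-ctl, and then 103, 174 and 252 in Myh6-tg. Each Myh6-tg heart was above each of the other 9. In counts this was 160 to 263 in the Myh6-ctl hearts and 4807 to 13333 in Myh6-tg. The log2 fold change of 5.36 (SE 0.38, 95% confidence interval 4.48 to 6.25, adjusted p 0.00102), a fold of 41.2, was the 43rd highest of the 15298 genes tested. In the EIIa model the groups overlapped (log2 fold change 0.93, SE 0.43, 95% confidence interval −0.05 to 1.90, adjusted p 0.161), and EIIa-tg replicate 3 alone stood above the highest control by more than the control spread. Between same-numbered hearts the log2 ratio was 4.77, 5.38 and 5.65 in the Myh6 model and 0.25, 0.17 and 2.02 in the EIIa model.

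Ltbp3, which carries latent TGF-beta, rose in both models. It had 35.6, 42.3 and 38.8 normalized CPM in EIIa-ctl and 51.7, 49.9 and 70.4 in EIIa-tg (log2 fold change 0.56, SE 0.14, adjusted p 0.0370). In Myh6 hearts it had 42.1, 49.5 and 51.2 in controls and 108, 158 and 184 in transgenic hearts (log2 fold change 1.66, SE 0.23, adjusted p 0.00573). Neither pair of groups overlapped. Ltbp1, the best known carrier of latent TGF-beta, was the one member that fell. It had 56.7, 48.8 and 56.4 in EIIa-ctl and 34.8, 42.9 and 33.6 in EIIa-tg (log2 fold change −0.54, SE 0.13, adjusted p 0.0285). The Myh6 hearts had 46.1, 37.6 and 52.3 in controls and 31.7, 35.6 and 34.0 in transgenic hearts, lower without overlap but not called (log2 fold change −0.42, SE 0.18, adjusted p 0.136). In the fit of all 12 hearts it was called lower in this model too (−0.42, adjusted p 0.0468), where 5049 of 15929 genes in all were called. On the FPKM scale, whose median over all genes shifts upward, the Myh6 value of Ltbp1 was 0.06 at a pseudocount of 1, so its direction there depends on the scaling.

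Ltbp4, the dominant member, was not called in either model. It had 535, 580 and 590 normalized CPM in EIIa-ctl and 302, 572 and 486 in EIIa-tg (log2 fold change −0.33, SE 0.21, adjusted p 0.311). Among Myh6 hearts it had 502, 518 and 662 in controls and 469, 904 and 1046 in transgenic hearts (log2 fold change 0.53, SE 0.32, adjusted p 0.292). Myh6-tg replicate 1 was below all 3 controls and the other Myh6-tg hearts above them. Without that heart the log2 fold change was 0.80 (adjusted p 0.0316). Per length, the make-up of the family differed between the Myh6 groups. Ltbp4 made up 86.0%, 86.5% and 87.3% of the 4 Ltbp mRNAs by FPKM in Myh6-ctl and 68.9%, 74.0% and 72.2% in Myh6-tg. Ltbp2 made up 0.480%, 0.520% and 0.497% and then 11.4%, 10.8% and 13.3%, which did not overlap and varied little among the 3 Myh6-tg hearts. In EIIa-tg the share of Ltbp2 ran from 0.599% to 1.34%, against 0.282% to 0.525% in EIIa-ctl.

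**Figure D2:**
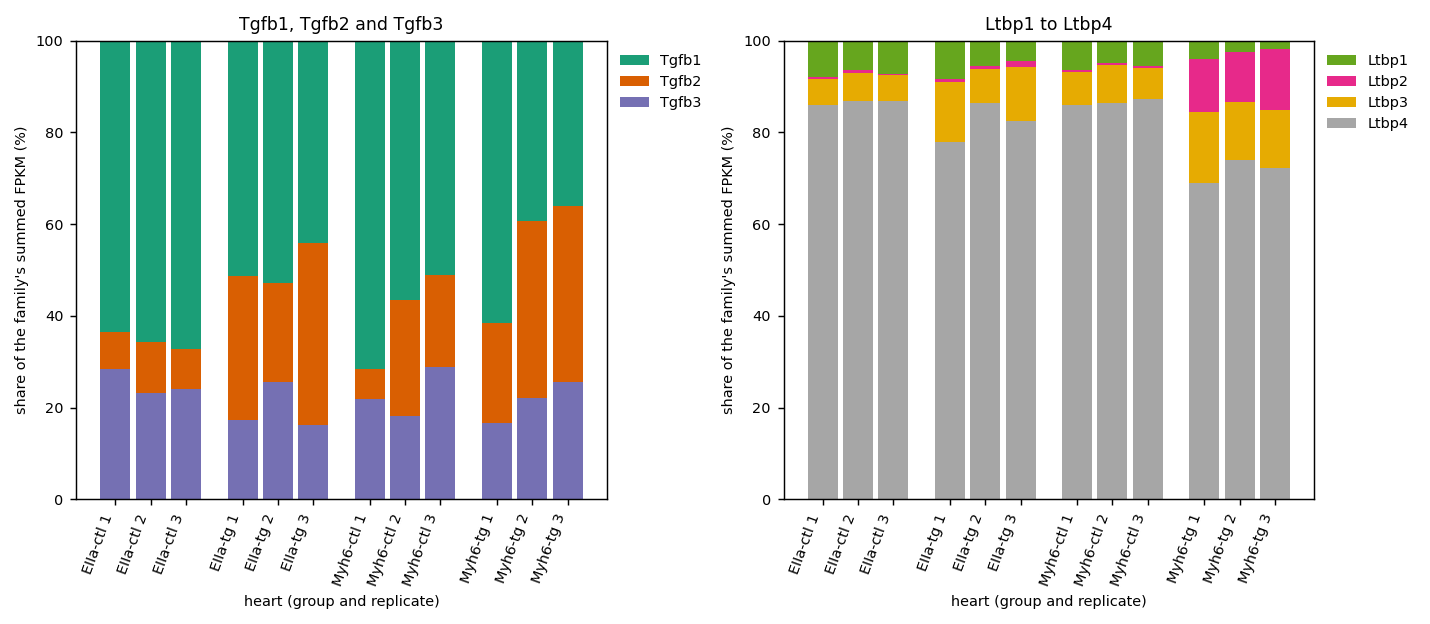
Share of each gene in the summed FPKM of its family (percent, stacked to 100) in each of the 12 hearts, for the 3 ligand genes (left) and the 4 latent binding protein genes (right). Tgfb2 takes 21.6% to 39.7% of the ligand mRNA in EIIa-tg against at most 11.1% in EIIa-ctl, and Ltbp2 is visible as a band of 10.8% to 13.3% in Myh6-tg.

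Each receptor mRNA was called in one of the models. Tgfbr2, the ligand-binding type II receptor, had 78.6, 80.8 and 72.4 normalized CPM in EIIa-ctl and 115, 95.1 and 119 in EIIa-tg (log2 fold change 0.50, SE 0.11, adjusted p 0.0233). In the Myh6 model it had 108, 74.7 and 110 in controls and 126, 167 and 171 in transgenic hearts, higher without overlap but not called (log2 fold change 0.67, SE 0.22, adjusted p 0.0769). It was called with all hearts kept by DESeq2 (adjusted p 0.0460), in the fit of all 12 hearts (adjusted p 0.0133) and by limma on FPKM (adjusted p 0.0258 and 0.0278), and also without Myh6-tg replicate 1 (log2 fold change 0.79, adjusted p 0.0272). Its adjusted p over all 17 alternatives ran from 0.0133 to 0.221. Tgfbr1, the signalling type I receptor, had 22.0, 23.5 and 18.7 in EIIa-ctl and 26.1, 25.7 and 32.6 in EIIa-tg, also higher without overlap and not called (log2 fold change 0.39, SE 0.14, adjusted p 0.0815). It rose in the Myh6 model from 20.1, 29.9 and 37.6 to 47.5, 86.9 and 88.9 (log2 fold change 1.35, SE 0.32, adjusted p 0.0251). By FPKM Tgfbr1 made up 20.5%, 36.0% and 31.8% of the summed receptor mRNA in Myh6-ctl and 34.7%, 42.1% and 42.2% in Myh6-tg, which overlap, and 26.3% to 28.9% and 24.0% to 28.5% in the EIIa groups.

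The difference between models was tested as the change in Myh6-tg minus the change in EIIa-tg over all 12 hearts. Ltbp2 was the 1 member called, at 4.43 on the log2 scale (SE 0.60, 95% confidence interval 3.12 to 5.74, adjusted p 0.00389), with 1.65% of 15929 genes called in this direction and 2.27% in the other. It also met the DEG thresholds, as 0.622% of genes did. Ltbp3 lay at the threshold (difference 1.09, SE 0.28, adjusted p 0.0501) and was called by DESeq2 (adjusted p 0.00729), with the replicate number as a block (adjusted p 0.0427) and without Myh6-tg replicate 1 (adjusted p 0.00439). Tgfb3 and Tgfbr1 had differences of 0.99 and 0.96 (adjusted p 0.129 and 0.173), and Tgfb1 0.68 (adjusted p 0.1296). For Tgfb2 the difference was −0.18 with a 95% confidence interval from −1.73 to 1.37, so neither a larger nor a smaller change in the Myh6 model could be detected with these hearts. The intervals for Inhba (−0.61 to 3.23) and Ltbp4 (−0.04 to 1.74) also held 0, as did those for Ltbp1 (−0.34 to 0.57) and Tgfbr2 (−0.38 to 0.70). Without Myh6-tg replicate 1, 6 members were called, Ltbp2, Ltbp3, Ltbp4, Tgfb3, Tgfbr1 and Inhba. Leaving out this heart also raised the number of all genes called in the Myh6 model. The count of 6 therefore cannot be read against the shares of the full fit given above.

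**Figure D3:**
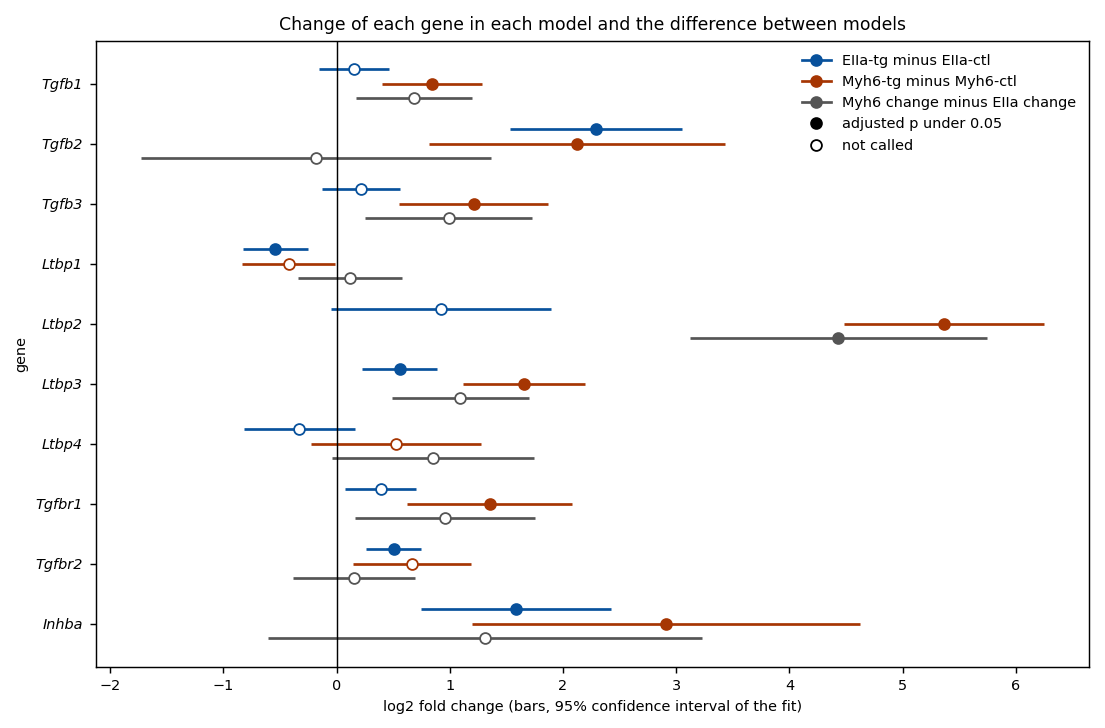
Log2 fold change of each gene in the EIIa model, in the Myh6 model and their difference (horizontal axis), with bars for the 95% confidence interval of the fit and filled points for an adjusted p under 0.05. Ltbp2 is the filled point of the difference at 4.43, and the intervals of Tgfb2 in the 2 models lie over each other.

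The control groups were compared to see how far the members differ between day 30 and day 90 without expression of the repeat. No member was called, by edgeR or by DESeq2, against 0.0200% of 14990 genes called higher and 0.0133% called lower in Myh6-ctl (5 genes in all, and 1700 at an unadjusted p under 0.05). The 1 member with an unadjusted p under 0.05 was Tgfb2, at 1.18 on the log2 scale (SE 0.49, unadjusted p 0.0384, adjusted p 0.409), whose control hearts overlapped. The other 9 ranged from −0.25 for Ltbp1 to 0.45 for Tgfbr1. The EIIa and Myh6 hearts differ in age, Cre line and injection, which cannot be told apart.

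The wider pathway was counted in 5 lists, to be read against the 8.65% of all genes called higher and 8.30% lower in the EIIa model and 8.96% and 9.38% in the Myh6 model. The first list holds genes that store and release latent TGF-beta. Of 21 tested, 11 rose and 1 fell in Myh6-tg (median log2 fold change 0.92), and 2 rose and 1 fell in EIIa-tg (median 0.27), which in EIIa-tg is about the share of all genes. Thbs1, thrombospondin 1, which frees TGF-beta from its propeptide, had 7.96 to 20.9 normalized CPM in EIIa-ctl against 32.7 to 60.99 in the EIIa-tg hearts, and 27.3 to 44.5 in Myh6-ctl against 230 to 365 in the Myh6-tg hearts. Its log2 fold change was 1.85 in the EIIa model (adjusted p 0.0194) and 3.13 in the Myh6 model (adjusted p 0.00165). The gelatinase gene Mmp2 rose by 2.12 on the log2 scale in the Myh6 model (adjusted p 0.00354) and had 0.74 in the EIIa model (adjusted p 0.0568). Fbn1, fibrillin 1, the microfibril protein that latent binding proteins attach to, had log2 fold changes of 0.31 (adjusted p 0.416) in the EIIa model and 1.91 (adjusted p 0.0153) in the Myh6 model. Of the integrin genes in the list, Itgb5 rose in the Myh6 model (1.36, adjusted p 0.00583), as did Itgb1 (1.19, adjusted p 0.0106) and Itgb3 (1.53, adjusted p 0.0370), the last 2 named after their values were seen. Itgb6, a subunit of the epithelial activator, fell in both, from 14.8 to 16.4 normalized CPM in EIIa-ctl to 1.43 to 6.46 in EIIa-tg (log2 fold change −2.19, adjusted p 0.0245), and from 4.67 to 10.02 in Myh6-ctl to 0.0868 to 0.598 in Myh6-tg (log2 fold change −4.64, adjusted p 0.00700), the last of these near the level of 3 counts. Mmp14, which falls outside the rule for named genes and was named after its values were seen, was the other gene of this list that rose in EIIa-tg (0.87, adjusted p 0.0310). It rose in Myh6-tg as well (2.22, adjusted p 0.0150).

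Most other receptors of the superfamily were not called. Of 12 tested, 1 rose and 1 fell in EIIa-tg (median 0.02), and 1 rose and 0 fell in Myh6-tg (median −0.01). The decoy receptor gene Bambi rose in the EIIa model (0.85, adjusted p 0.0251) and had −1.09 in the Myh6 model (adjusted p 0.117). Cd109, a co-receptor that promotes receptor turnover, fell in the EIIa model (−1.14, adjusted p 0.0301) and had 1.27 in the Myh6 model (adjusted p 0.117). The differences between models for Bambi and Cd109, −1.95 and 2.41, missed the threshold (adjusted p 0.0589 and 0.0515). The type I receptor gene Acvr1 rose in the Myh6 model (0.72, adjusted p 0.0474), and Tgfbr3, betaglycan, which presents TGF-beta 2 to the type II receptor, had 0.17 and 0.36 (adjusted p 0.293 and 0.185).

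Beside Inhba stand the other activin genes and the antagonists of activin. Of 11 activin-related genes, 6 were tested, of which 3 rose in EIIa-tg (median 1.34) and 2 in Myh6-tg (median 1.24), with none lower. Fstl3, a secreted inhibitor that binds activin, had 5.46 to 7.22 normalized CPM in EIIa-ctl against 11.6 to 29.7 in the EIIa-tg hearts, and 6.56 to 12.1 in Myh6-ctl against 86.3 to 119 in the Myh6-tg hearts. It rose by 1.68 on the log2 scale in the EIIa model (adjusted p 0.0186) and by 3.51 in the Myh6 model (adjusted p 0.00123), and the difference of 1.82 between models was called (adjusted p 0.0422). Fst, follistatin, rose in the EIIa model (2.99, adjusted p 0.0166), from 0.342 to 1.04 normalized CPM in controls to 2.96 to 7.68. Its value in the Myh6 model was 1.64 (adjusted p 0.0804). Inhbb, the subunit of activin B, rose in the Myh6 model (2.37, adjusted p 0.0132) and had 1.01 in the EIIa model (adjusted p 0.101). The third gene that rose in EIIa-tg was Gdf15 (2.97, adjusted p 0.0237), a stress-induced cytokine named here after its values were seen. Gdf15 had 0.75 in the Myh6 model (adjusted p 0.440).

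Among 16 Smads and their regulators, 1 rose and 1 fell in EIIa-tg (median 0.17), no more than the share of all genes, and 3 rose and 0 fell in Myh6-tg (median 0.43). The receptor-regulated Smad2 and Smad3 and the shared Smad4 were not called in either model. In Myh6-tg, Pmepa1, which sequesters Smads, rose by 1.73 (adjusted p 0.00561), Tgif1, a Smad corepressor, by 1.27 (adjusted p 0.00887), and Smad7, the inhibitory Smad, by 0.72 (adjusted p 0.0372), while the other inhibitors and repressors in the list, such as Smad6 (0.54, adjusted p 0.128) and Ski (0.30, adjusted p 0.395), were not called. In EIIa-tg Tgif1 rose (0.68, adjusted p 0.0459), Zfyve9, an anchor of Smads at endosomes, fell (−0.48, adjusted p 0.0281), and Smad7 had 0.10 (adjusted p 0.578). For Pmepa1 the change was larger in the Myh6 model by 1.503 (adjusted p 0.0142).

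Of 19 commonly used target genes tested, 5 rose in EIIa-tg (median 0.77) and 13 in Myh6-tg (median 2.02), with none lower. Several of them are also general genes of matrix or stress, and Pmepa1, Smad7, Skil and Fn1 stand in another pathway list as well. Lox, the collagen cross-linking enzyme, had 4.27 to 7.17 normalized CPM in EIIa-ctl against 12.97 to 30.6 in the EIIa-tg hearts, and 9.11 to 11.9 in Myh6-ctl against 460 to 645 in the Myh6-tg hearts (log2 fold changes 1.91 and 5.74, adjusted p 0.0166 and 0.000402). Ctgf (also called Ccn2), a matricellular protein, rose by 1.97 and 3.47 (adjusted p 0.0135 and 0.00875). Cdkn1a, the cell cycle inhibitor p21, which is also a target of p53, rose by 3.49 and 2.47 (adjusted p 0.0160 and 0.0139). Col1a1 rose in the Myh6 model (2.11, adjusted p 0.00515) and had 0.82 in the EIIa model (adjusted p 0.0717). Timp1, an inhibitor of metalloproteinases named after its values were seen, rose in EIIa-tg (3.36, adjusted p 0.0178) and in Myh6-tg (2.02, adjusted p 0.00680). Acta2, the actin of smooth muscle and myofibroblasts, had −0.45 and −0.13 (adjusted p 0.448 and 0.799). The difference between models was called for Lox, Postn and Pmepa1.

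**Figure D4:**
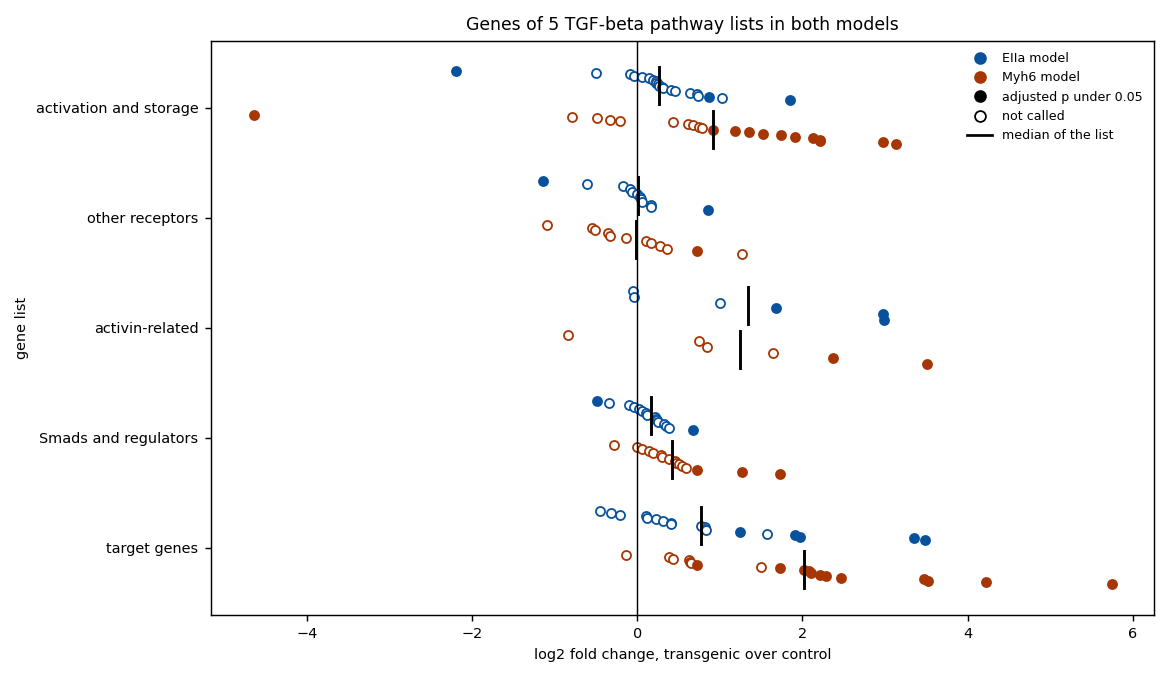
Log2 fold change of every tested gene in 5 lists of TGF-beta pathway genes (rows) in the EIIa and the Myh6 model, with filled points for an adjusted p under 0.05 and a black bar for the median of the list. The target genes have a median of 0.77 in the EIIa model and 2.02 in the Myh6 model, and the other receptors 0.02 and −0.01.

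Some markers of several cell types were called in the same comparisons, and their part in the results was not tested. Over all genes tested, 8.65% were called higher and 8.30% lower in the EIIa model. In the Myh6 model these shares were 8.96% and 9.38%, and the marker counts are to be read against them. The summed normalized CPM of 5 activated fibroblast markers was 97.1, 113 and 166 in Myh6-ctl and 780, 2394 and 2571 in Myh6-tg, where 3 of 5 (Postn, Comp and Cthrc1) rose, and 75.5 to 131 and 82.7 to 184 in the EIIa groups, where 0 of 5 did. Postn, periostin, rose by 4.23 on the log2 scale in the Myh6 model (adjusted p 0.00391) and had 0.82 in the EIIa model (adjusted p 0.138). The sum of 7 general fibroblast markers was 2527 to 3054 in EIIa-ctl and 3827 to 5324 in EIIa-tg (3 of 7 rose). It was 3053 to 3753 in Myh6-ctl and 1926, 4637 and 5229 in Myh6-tg (1 of 7 rose). Myh6-tg replicate 1, the lowest of these hearts for fibroblast and activated fibroblast markers and for 9 of the members, had the highest sum of 6 cardiomyocyte markers (26720 against 10860 and 8193) and of 6 macrophage markers (618 against 325 and 319). This heart differs in sex from the others of its group, and the part of sex was not tested. Macrophage markers ran from 143 to 211 in EIIa-ctl and from 275 to 366 in EIIa-tg (5 of 6 rose), and from 253 to 345 in Myh6-ctl (0 of 6 called in the Myh6 model). Cardiomyocyte markers fell in 1 of 6 genes in the EIIa model and in 3 of 6 in the Myh6 model. Of 6 endothelial markers, 3 fell in the EIIa model and none was called in the Myh6 model, and of 4 platelet and megakaryocyte markers Pf4 rose in the EIIa model and Ppbp fell in the Myh6 model. The summed level of the T cell genes was at most 2.52 normalized CPM in any heart, and that of the brain genes at most 7.46, with none called. Of 5 atrial genes, 2 were tested in the EIIa model, where Nppa rose, and 3 in the Myh6 model, where Myl4 rose. Of 6 smooth muscle and pericyte markers, Cnn1 rose in both models and Myh11 fell in the Myh6 model. Of 4 epicardial and mesothelial markers none was called in either model, and of 3 red cell genes 2 fell in the Myh6 model and 0 in the EIIa model.

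**Figure D5:**
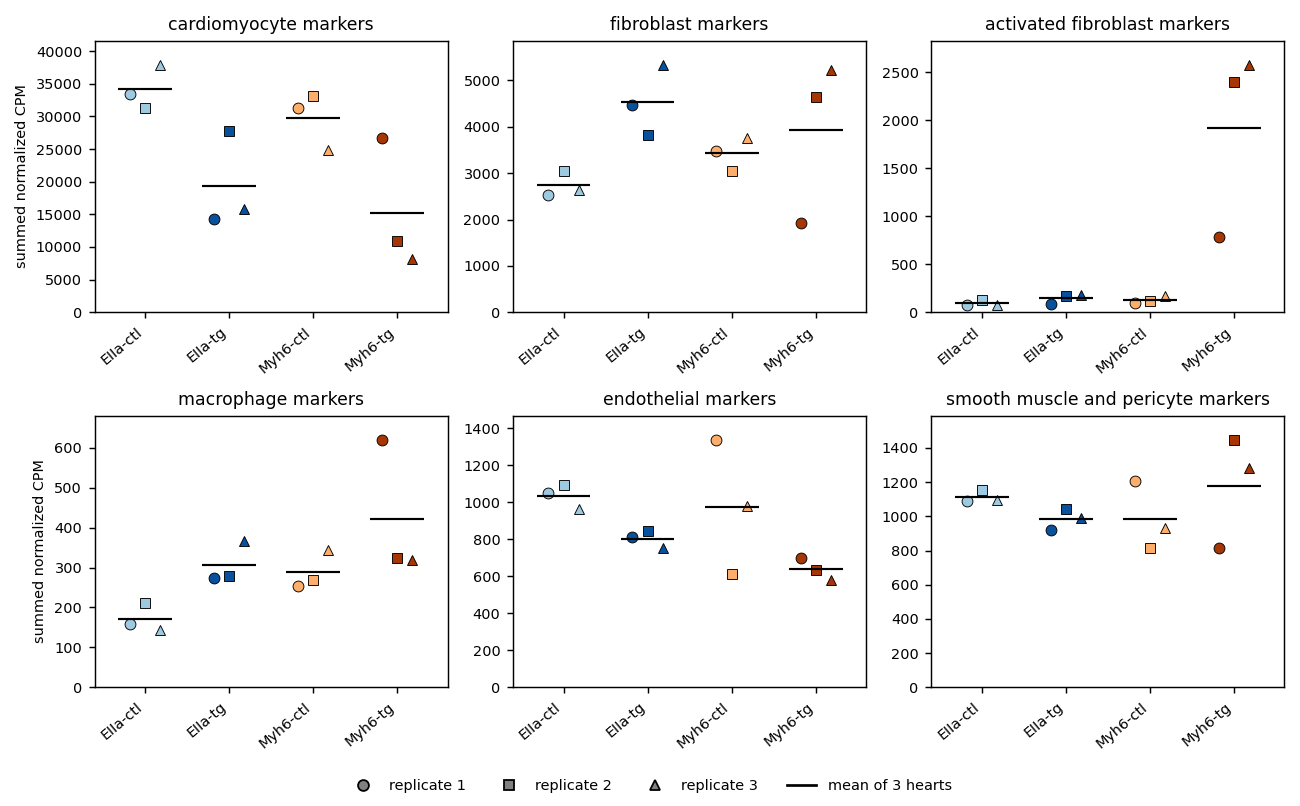
Summed normalized CPM of 6 cell type marker lists in every heart (vertical linear axis from 0), by group, with marker shape for the replicate number and a bar for the mean of 3 hearts. The activated fibroblast sum is at most 184 in 9 hearts and at least 780 in Myh6-tg, and in Myh6-tg replicate 1 is the lowest for both fibroblast lists and the highest for cardiomyocyte and macrophage markers.

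Genes with the most similar pattern over the 12 hearts were found by the root mean square difference of centred log2 CPM among 4541 genes, as a description. Ltbp2, with an SD of 2.45 on the log2 scale, was closest to Col12a1, a fibril-associated collagen (0.38), and Nox4, an NADPH oxidase (0.48). Tgfb2 (SD 1.46) was closest to Fhl1, a LIM protein of muscle (0.26), and Hspb1, a small heat shock protein (0.28). Inhba (SD 1.38) was closest to Cdr2 (0.34) and Calhm5 (0.44). Ltbp3 was closest to Mxra8 (0.11) and Sorbs3 (0.12). Tgfb3 was closest to Antxr1 (0.16) and Arf6 (0.17), Tgfbr1 to Pmp22 (0.17) and Ptgis (0.17), and Tgfbr2 to Thsd4 (0.16) and Xylt1 (0.17). Tgfb1 was closest to Dap (0.19) and Tuba1a (0.19), and Ltbp4 to Islr (0.28) and Plod2 (0.30). Ltbp1 (SD 0.31) was closest to an unnamed locus (0.26) and Slf1 (0.26). Genes compared had an SD of at least 0.5, above that of Ltbp1, Tgfb1 (0.43), Tgfbr2 (0.42) and Ltbp4 (0.46), which sets a floor on the distances of these 4.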

How the data were processed

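The authors sequenced RNA of 12 hearts (NovaSeq, paired ends) and aligned the reads to GRCm38 using Hisat2 (the submitters' processing notes list HISAT2 2.0.4 and StringTie 2.2.1, and the builds GRCm39 and mm10). The deposited counts are whole reads per gene without normalization, and the deposited FPKM values were computed by the authors. The counting program was not given in the sources used here. The members and lists were chosen with earlier results of these data known.

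Tests were run with edgeR 4.0.16 (R 4.3.3): low counts were removed by filterByExpr, libraries scaled by TMM, and the quasi-likelihood test fitted to the 6 hearts of a comparison, or in all 12 for the difference, with Benjamini-Hochberg adjustment over all genes tested (called at an adjusted p under 0.05). The standard error is the log2 fold change divided by the root of F. The fit was tested on simulated data. Alternatives used DESeq2 1.42.0, limma 3.58.1 on log2(FPKM + 1) or log2(FPKM + 0.1), other filters and scalings, and each heart left out. Figures were drawn with matplotlib.

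Same-numbered Myh6 hearts deviated together (correlations across genes 0.285, 0.184 and 0.173), and EIIa hearts did not (0.060, −0.070 and −0.050). Whether the hearts numbered alike share a litter is not stated. The hearts numbered 1 also differ in sex from all others, and the part of sex in these correlations was not tested. P-values measure the spread between these hearts, counts of 3 set the floor, and intervals of counts cover counting error only. Beside all 10 members, genes named were those with the 3 lowest p-values in the Myh6 model and the 2 lowest in the EIIa model from each pathway list, with Tgfbr3, Fbn1, Thbs1, Smad7, Ctgf, Postn and Esr1, and for each member the 2 genes of most similar pattern. Some items that the rule covers are not reported here. Those genes had a mean of at least 1 CPM and an SD of at least 0.5 (prior count 2).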

Additional observations from a re-analysis of the deposited data

Results flagged for a closer look

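The change of Ltbp2 differed between the models by the test of the difference itself. It was larger in the Myh6 model by 4.43 on the log2 scale (SE 0.60, adjusted p 0.00389, edgeR quasi-likelihood test over 12 hearts), and it stayed called under each of the 22 alternatives run (3.84 to 4.99, highest adjusted p 0.0134). The hearts of the 2 models also differ in age, Cre line and injection, which cannot be told apart from the model.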

How the results depend on the processing

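The 5 members called in the EIIa model were 5 by DESeq2, with RLE scaling, with no filter, with a CPM filter, without the mitochondrial genes and with the bias-adjusted quasi-likelihood fit (added after seeing the data), 6 by limma on FPKM, and 0 with the study's thresholds, in a fit of all 12 hearts or with hearts 2 and 3 only, settings in which 0, 227 and 0 genes in all were called. Genes called in all were 2527 of 14908 in the main test and 3539 of 16827 by DESeq2. By limma they were 3028 and 2988 of 12681 at pseudocounts of 1 and 0.1. Leaving out 1 heart gave 0 to 5 members. With a replicate block 0 members and 1 gene in all were called (Tgfb2 2.264 against 2.294), and the EIIa numbers do not deviate together. Where 0 genes or 1 gene in all pass, the count says nothing about the stability of the members. In the fit of all 12 hearts, where 227 genes passed, the SE of each of the 5 was larger. That of Tgfb2 was 0.53 against 0.33, of Inhba 0.64 against 0.37 and of Ltbp1 0.149 against 0.126. The edgeR adjusted p of the 5 ran there from 0.0548 (Tgfb2) to 0.176 (Inhba). No EIIa direction reversed. The 7 Myh6 members were 2 with the study's thresholds, 9 in the fit of all 12 hearts (8 higher, and Ltbp1 lower), 8 by DESeq2, 7 with the replicate block, and 2 to 9 with 1 heart left out. Genes called in all were 2805 of 15298 in the main test and 608 with the study's thresholds. They were 5049 of 15929 in the fit of all 12 hearts, 3873 of 17681 by DESeq2 and 3204 with the block. The 1 member of the difference was 2 by DESeq2, with RLE scaling, no filter, a CPM filter, the replicate block, limma on FPKM, hearts 2 and 3 only or the bias-adjusted fit, and 1 to 6 with 1 heart left out. The main test of the difference called 624 genes in all, and the totals of its other settings are not given here. The block changed no call of the Myh6 model. Of the controls, 0 members were called throughout.

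Values not called in the main test changed sign as follows, and the cause was not tested. Ltbp1 in the Myh6 model was 0.05665 and 0.06925 by limma on FPKM with pseudocounts of 1 and 0.1. The difference of Tgfb2 was 0.03246 with the replicate block and 0.4023 and 0.3022 by limma. With 1 heart left out, the difference ranged from −0.6033 to 0.3251 for Tgfb2, −0.004763 to 0.231 for Ltbp1 and −0.006607 to 0.2827 for Tgfbr2. Between controls the range was −0.02251 to 0.2133 for Tgfb1, −0.08084 to 0.1933 for Tgfb3, −0.158 to 0.05152 for Ltbp4 and −0.01704 to 0.5549 for Inhba, and with hearts 2 and 3 only Tgfb1 was −0.07975 and Ltbp4 0.0138.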
